A study of Rattus norvegicus with 16 samples.

Results

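The sarcoglycans, sarcospan and dystroglycan are the membrane proteins that dystrophin holds at the surface of a muscle fibre, and the data on 6 of their genes are described here: Sgca, Sgcb, Sgcd, Sgce, Sspn and Dag1. They were taken by gene symbol from a deposited table of 31141 rat genes, with no threshold on measured values, and all 6 passed the filter for testing. The choice was made with earlier results of these data known. Transcripts were measured by mRNA sequencing of the tibialis anterior, a muscle at the front of the lower leg, in 16 libraries from rats of the Wistar-Imamichi background. The DMD_KD group has 6 libraries from Dmd-mutant rats fed MCTKD, an abbreviation the labels leave unexpanded and that is commonly read as medium-chain triglyceride ketogenic diet. The DMD_ND group has 6 libraries from Dmd-mutant rats on normal diet, and the WT_ND group has 4 libraries from wild-type rats on normal diet. Feeding ran from weaning until the rats were 9 months old. The Dmd allele and the sex of the rats, not given in the sources used here, are left out, and the 16 libraries hold no wild-type group on MCTKD. Nothing in the labels says that every library is an animal of its own, so the p-values cover only the spread between libraries of a group, which may be technical.

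Dystrophin ties the actin cytoskeleton of the fibre to dystroglycan, which spans the membrane and binds laminin in the basal lamina outside. In striated muscle several sarcoglycans, alpha, beta and delta among them, form a tight subcomplex that, together with sarcospan, a small protein with several membrane passes, steadies the bond between dystrophin and dystroglycan. When dystrophin is lost in Duchenne muscular dystrophy these proteins are largely lost from the fibre surface. Epsilon-sarcoglycan, encoded by Sgce, is the close relative of alpha-sarcoglycan, is made in many tissues besides muscle, and can take the place of alpha in the subcomplex. Mutations of the sarcoglycan genes of the striated muscle subcomplex cause limb-girdle muscular dystrophies, and mutations of SGCE cause myoclonus-dystonia in humans.

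The libraries held between 17125084 and 28116085 reads assigned to genes. Dmd, the mutated gene, averaged 1.36 ± 0.545 FPKM in DMD_KD, 1.76 ± 0.208 in DMD_ND and 7.32 ± 3.32 in WT_ND (SD, n = 6, 6 and 4), with no mutant library reaching the lowest wild-type library in FPKM as deposited. Its log2 fold change against WT_ND was -1.77 in DMD_KD and -1.51 in DMD_ND (adjusted p = 2.24e-06 and 7.73e-06 in limma), and it was -1.35 and -0.83 under the TPM scaling described next. Scaled to fibre structure genes it was -1.06 in DMD_KD and -0.57 in DMD_ND, the last not called (adjusted p = 0.0571 in limma). In TPM the Dmd levels of mutant and wild-type libraries overlapped, at 0.751 to 5.12 in DMD_KD, 3.23 to 4.77 in DMD_ND and 4.35 to 16.7 in WT_ND. FPKM, fragments per kilobase of gene per 1e6 reads, is used as deposited; it was scaled between libraries by size factors, which hold the typical gene level. When every library is instead brought to one total, as in TPM, the median gene of DMD_ND lies 0.83 above WT_ND on the log2 scale, that of DMD_KD 0.56 above WT_ND, and the difference of DMD_KD from DMD_ND is -0.24. Several directions below therefore depend on the scaling, and each is given under both. Some libraries stood apart from their group. DMD_KD replicate 3 got a weight of 0.129 from limma's library weights, the lowest of all. The next lowest were 0.238 and 0.283 for WT_ND replicates 4 and 1, while WT_ND replicates 3 and 9 got 1.05 and 2.13. In DMD_KD replicate 3 the long genes (2146 tested genes of at least 5000 bases) were low beside the short genes (2250 genes under 1500 bases). The contrast, the median log2 deviation from each gene's mean over the 16 libraries in long minus short genes, was -0.446 there. The same contrast was 0.277 and 0.278 in WT_ND replicates 3 and 9, against 0.0562 and -0.137 in WT_ND replicates 1 and 4, and between -0.166 and 0.103 in the other mutant libraries. Acta1, skeletal muscle actin and a defining marker of the labelled tissue, averaged 23881 FPKM in DMD_KD, 15276 in DMD_ND and 38395 in WT_ND. Mitochondrial transcripts took 15.6% of reads in DMD_KD, 13.1% in DMD_ND and 23.0% in WT_ND on average.

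All 6 genes are annotated as protein-coding. Sgca (ENSRNOG00000003998) lies on chromosome 10, 79908738 to 79922813, minus strand, by the deposited positions on mRatBN7.2. Sgcb (ENSRNOG00000002135) lies on chromosome 14, 34563608 to 34578583, plus strand, and Sgcd (ENSRNOG00000002372) on chromosome 10, 31280511 to 31724840, minus strand. Sgce (ENSRNOG00000046905) lies on chromosome 4, 32771477 to 32842254, minus strand, Sspn (ENSRNOG00000001807) on chromosome 4, 178897147 to 178931554, plus strand, and Dag1 (ENSRNOG00000019400) on chromosome 8, 108890929 to 108952325, minus strand. The gene models behind the FPKM run from 1363 bases for Sgcd to 5365 bases for Dag1. Sgca shares 842 bases with Hils1 on the opposite strand, which averaged 1.47 FPKM. With the strand setting of the counting not given in the sources used here, reads from the shared bases cannot be told apart. Sgcd shares 821 bases with an unnamed gene on its own strand that is listed at 0. Sgcz, the gene of zeta-sarcoglycan, is listed at 0 in every library.

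The proximal promoters of 3 sarcoglycan genes are shown, those of the relatives Sgca and Sgce and of Sgcb, which had the largest log2 fold change in size of the 6 against WT_ND as deposited, from RefSeq on GRCr8, a later build than that of the deposited positions, each from 250 bases before to 50 bases after the gene's start and read along the gene's own strand. Of the 6 genes, 5 had an entry. Capitals mark CANNTG, the E-box word that muscle regulatory factors of the MyoD family bind, which reads the same on both strands.
Sgca, chr10:80416026-80416325, minus strand: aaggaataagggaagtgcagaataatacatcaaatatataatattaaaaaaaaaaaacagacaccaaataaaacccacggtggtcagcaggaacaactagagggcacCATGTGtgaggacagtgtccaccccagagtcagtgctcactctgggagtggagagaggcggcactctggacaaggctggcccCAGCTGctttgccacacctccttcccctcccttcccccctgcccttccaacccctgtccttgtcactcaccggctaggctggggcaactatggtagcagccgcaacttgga
Sgcb, chr14:34917413-34917712, plus strand: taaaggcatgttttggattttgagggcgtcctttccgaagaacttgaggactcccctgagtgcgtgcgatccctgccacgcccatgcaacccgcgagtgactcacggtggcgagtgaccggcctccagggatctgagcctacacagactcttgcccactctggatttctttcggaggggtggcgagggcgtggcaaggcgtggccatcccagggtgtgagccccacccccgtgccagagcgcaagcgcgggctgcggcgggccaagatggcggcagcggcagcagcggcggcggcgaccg
Sgce, chr4:33808739-33809038, minus strand: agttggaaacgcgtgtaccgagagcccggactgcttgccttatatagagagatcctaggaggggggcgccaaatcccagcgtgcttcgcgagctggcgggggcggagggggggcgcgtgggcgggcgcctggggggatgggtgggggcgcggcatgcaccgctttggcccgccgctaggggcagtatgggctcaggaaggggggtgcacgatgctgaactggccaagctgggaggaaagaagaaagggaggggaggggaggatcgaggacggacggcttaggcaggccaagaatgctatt
The Sgca window holds 2 E-box words, CATGTG 143 bases and CAGCTG 61 bases before the gene's start, and the Sgcb and Sgce windows hold none. The word is common, and 72.1% of the 33469 rat promoter windows of this length hold at least 1. The windows also differ in CG pairs, with 4 in Sgca, 27 in Sgcb and 23 in Sgce, where the median window holds 7. A match of letters is a description of the window, not a binding site.

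Among the 6 genes Sgca was the most abundant in every group, and the order below it differed between mutant and wild-type muscle. In DMD_KD and DMD_ND the mean levels ran from Sgca through Dag1, Sgcb, Sspn and Sgcd to Sgce, and in WT_ND from Sgca through Sgcb, Dag1, Sspn and Sgcd to Sgce. Dag1 was above Sgcb in 6 of 6 DMD_KD and 5 of 6 DMD_ND libraries, whereas Sgcb was above Dag1 in 3 of 4 WT_ND libraries, and in each group the ranges of these 2 genes overlapped. Sgca stood clear of its neighbour in DMD_KD and DMD_ND, and its range overlapped that of Sgcb in WT_ND. Sspn and Sgcd overlapped in DMD_KD and WT_ND, and Sgcb and Sspn in DMD_KD, although the higher gene of each pair was higher in every library. Sgce was lowest in every library, clear of Sgcd in all 3 groups. Between 32 and 90 reads in WT_ND and between 50 and 285 reads in the mutant libraries lay behind its values, the thinnest counts of the 6 genes.

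**Figure D1:**
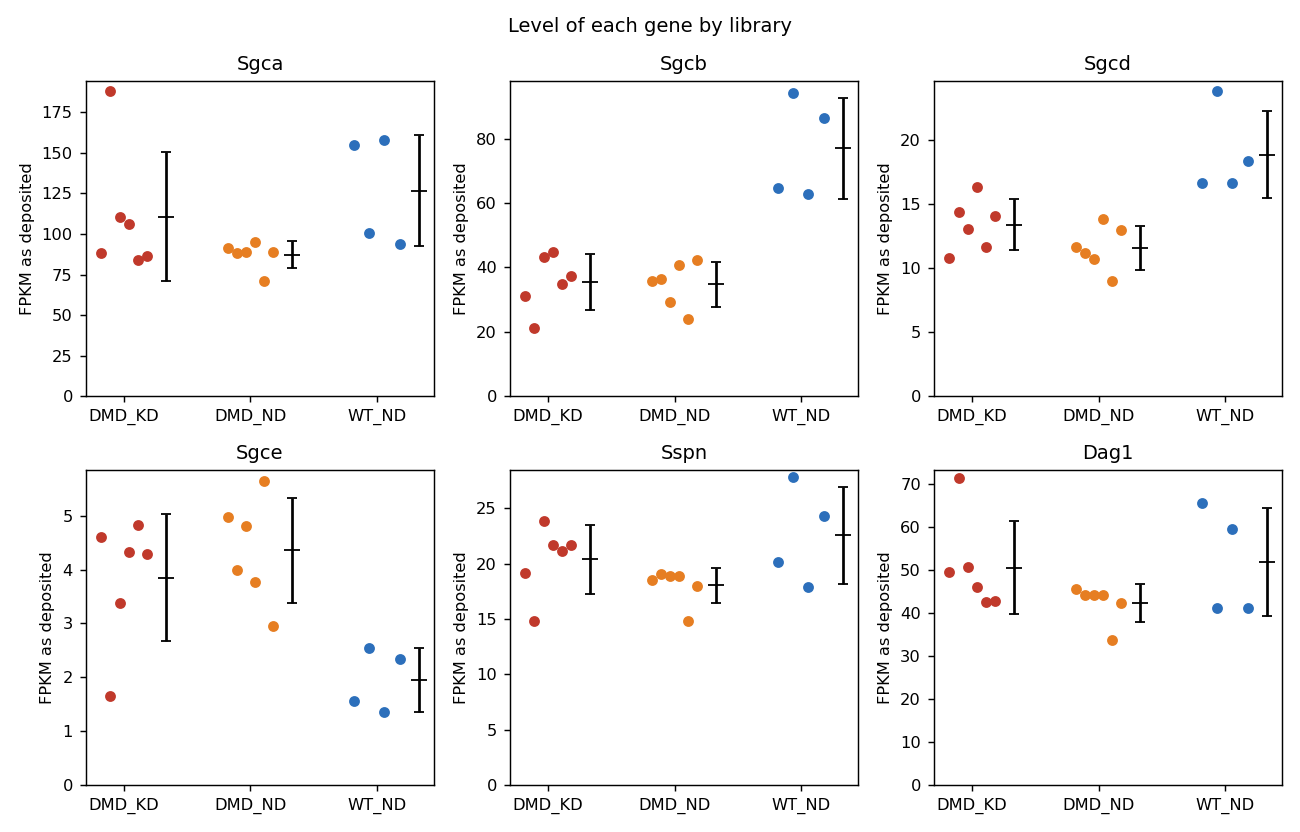
FPKM of the 6 genes in each library (points), by group, with the group mean and SD at the right of each group; every axis starts at 0. Sgcb is lower and Sgce higher in all DMD_ND libraries than in all WT_ND libraries, and the high Sgca and Dag1 points in DMD_KD, at 188 and 71.4 FPKM, are replicate 3.

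The comparison of DMD_ND with WT_ND asks what the Dmd mutation changes on normal diet. Sgcb, Sgcd and, narrowly, Sgca were lower in DMD_ND in FPKM as deposited, Sgce was higher, and Sspn and Dag1 did not pass the test. That is 3 lower, 1 higher and 2 not called of 6 (limma on log2(FPKM + 1), Benjamini-Hochberg adjusted p under 0.05 over 12119 genes). Over all tested genes 65.7% were called, 34.3% lower and 31.5% higher, so 4 of 6 is close to the background and says nothing particular of these genes. Under TPM scaling none of the 6 was called lower and 4 were called higher (Sgca, Sgce, Sspn and Dag1), against 70.7% of all genes called higher and 5.94% lower on that scale. Divided instead by the geometric mean of 18 fibre structure genes, as another scaling, 5 of 6 were called higher (all but Sgcb), beside 79.6% of all genes.

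Sgca encodes alpha-sarcoglycan, the striated-muscle member of the family. It had 70.8, 89.1 and 94.8 FPKM in DMD_ND (lowest, median and highest of 6 libraries), against 155, 100.4, 158 and 93.9 FPKM in WT_ND replicates 1, 3, 4 and 9. DMD_ND replicate 9 was the low library, WT_ND replicates 1 and 4 were the high ones, and the groups overlapped by 1 library on each side. The log2 fold change was -0.50 (adjusted p = 0.0448 in limma, SE 0.21), and it was 0.51 under TPM scaling (SE 0.092, adjusted p = 0.000104). The call as deposited depended on single libraries: without WT_ND replicate 4 the log2 fold change was -0.38 (adjusted p = 0.152 in limma), and it was also lost without WT_ND replicate 1 or any single DMD_ND library. Among all tested genes Sgca stood at a percentile of 96.2 ± 0.313 in DMD_ND and 96.2 ± 0.401 in WT_ND (SD, n = 6 and 4).

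Sgcb encodes beta-sarcoglycan, the core subunit on which the subcomplex is assembled. It had 23.9, 36.1 and 42.3 FPKM in DMD_ND (lowest, median and highest), against 64.6, 94.3, 62.9 and 86.3 FPKM in WT_ND replicates 1, 3, 4 and 9. Every DMD_ND library lay below every WT_ND library. The log2 fold change was -1.13 (adjusted p = 0.000112 in limma, SE 0.20), 2.19-fold lower on the log2(FPKM + 1) scale, and 7.58% of tested genes had a lower one. Under TPM scaling the log2 fold change was -0.14 (adjusted p = 0.686) and scaled to the fibre structure genes it was 0.09 (adjusted p = 0.749), so the call rests on the deposited scaling. Set against the median gene of the same scale, the differences were -1.09 as deposited, -0.96 in TPM and -0.83 with fibre structure scaling. Its percentile among tested genes averaged 89.8 ± 2.18 in DMD_ND and 93.7 ± 1.99 in WT_ND.

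Sgcd encodes delta-sarcoglycan, which pairs with beta-sarcoglycan early in assembly. It had 8.99, 11.4 and 13.8 FPKM in DMD_ND, against 16.6, 23.9, 16.6 and 18.4 FPKM in WT_ND, and the groups did not overlap. The log2 fold change was -0.66 (adjusted p = 0.000417 in limma, SE 0.14), but 0.30 under TPM scaling (adjusted p = 0.176) and 0.50 with fibre structure scaling (adjusted p = 0.00979). Against the median gene it was -0.62 as deposited and -0.53 in TPM.

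Sgce, epsilon-sarcoglycan, went the other way. It had 2.95, 4.40 and 5.64 FPKM in DMD_ND (lowest, median and highest), against 1.55, 2.55, 1.35 and 2.35 FPKM in WT_ND replicates 1, 3, 4 and 9. All 6 DMD_ND libraries lay above all 4 WT_ND libraries. The log2 fold change was 0.86 (adjusted p = 0.00132 in limma, SE 0.20), and it was 1.78 under TPM scaling (adjusted p = 0.000145) and 1.73 with fibre structure scaling (adjusted p = 4.67e-05). Sgce was the only one of the 6 genes that was called in the same direction under all 3 scalings here. Its percentile among tested genes averaged 44.0 ± 7.53 in DMD_ND and 28.1 ± 4.93 in WT_ND.

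Sspn, sarcospan, had 14.8, 18.7 and 19.1 FPKM in DMD_ND, against 20.2, 27.8, 17.9 and 24.3 FPKM in WT_ND, with overlap. Its log2 fold change of -0.29 (SE 0.14) missed the threshold as deposited (adjusted p = 0.0687 in limma), passed it without DMD_KD replicate 3 (adjusted p = 0.0285, with 5 of 6 genes and 70.1% of all tested genes then called) and without WT_ND replicate 4 (-0.39, adjusted p = 0.0235), and was 0.68 under TPM scaling (adjusted p = 0.0195). Dag1 encodes the single precursor that is cut into alpha- and beta-dystroglycan. It had 33.8, 44.1 and 45.7 FPKM in DMD_ND, against 65.7, 41.1, 59.5 and 41.2 FPKM in WT_ND replicates 1, 3, 4 and 9. WT_ND replicates 3 and 9 lay inside the DMD_ND range and replicates 1 and 4 above it. The log2 fold change of Dag1 was -0.26 (adjusted p = 0.171 in limma, SE 0.16), and 0.74 under TPM scaling (adjusted p = 6.65e-07). Groups that do not overlap in FPKM as deposited were seen for 3 of the 6 genes, Sgcb, Sgcd and Sgce, beside 55.1% of all tested genes. In TPM Sgcb ran from 64.7 to 107 in DMD_ND and from 64.9 to 138 in WT_ND. Sgcd ran from 24.4 to 33.4 in DMD_ND and from 16.7 to 33.5 in WT_ND, so both genes overlapped there. Sgce stayed apart in TPM, at 7.43 to 15.3 in DMD_ND and 1.42 to 3.77 in WT_ND.

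The comparison of DMD_KD with WT_ND uses the same wild-type libraries, so its values are not independent of those above. Sgcb and Sgcd were lower and Sgce higher in DMD_KD in FPKM as deposited, and Sgca, Sspn and Dag1 did not pass the test: 2 lower, 1 higher and 3 not called of 6, where 58.3% of all tested genes were called, 31.1% lower and 27.3% higher (limma, adjusted p under 0.05). Under TPM scaling Sgca, Sgce and Dag1 were called higher and none lower, beside 57.2% and 4.73% of all genes, and with fibre structure scaling Sgca, Sgce, Sspn and Dag1 were called higher, beside 63.7%. Sgcb had 21.2, 36.2 and 44.9 FPKM in DMD_KD (lowest, median and highest of 6), every library below those of WT_ND. Its log2 fold change was -1.11 (adjusted p = 0.000179 in limma, SE 0.20), and it was -0.39 under TPM scaling (adjusted p = 0.280). Sgcd had 10.8, 13.6 and 16.3 FPKM in DMD_KD, also all below WT_ND, with a log2 fold change of -0.46 (SE 0.14, adjusted p = 0.00791) that was 0.24 under TPM scaling (adjusted p = 0.295). Groups did not overlap in FPKM as deposited for these 2 genes, beside 37.2% of all tested genes. In TPM both overlapped with WT_ND, with 29.1 to 96.2 for Sgcb and 19.8 to 35.3 for Sgcd in DMD_KD.

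Sgce had 1.65, 4.31 and 4.83 FPKM in DMD_KD. The lowest of these was replicate 3, which fell inside the WT_ND range, and the other 5 libraries lay above it, from 3.38 to 4.83 FPKM. The log2 fold change was 0.69 (adjusted p = 0.00791 in limma, SE 0.20) and 1.36 under TPM scaling (adjusted p = 0.00212); without replicate 3 it was 0.86 (SE 0.15, adjusted p = 0.000143). Sgca had 83.9, 97.3 and 188 FPKM in DMD_KD, the highest value again being replicate 3. Its log2 fold change was -0.21 (adjusted p = 0.399 in limma, SE 0.21), and without replicate 3, where Sgca averaged 95.1 ± 12.2 FPKM (SD, n = 5), it was -0.38 (SE 0.16, adjusted p = 0.0456). Sspn had 14.8, 21.4 and 23.8 FPKM in DMD_KD, with a log2 fold change of -0.14 (adjusted p = 0.414 in limma), and 0.59 under TPM scaling, with an adjusted p just above 0.05. Dag1 had 42.5, 47.8 and 71.4 FPKM in DMD_KD, with a log2 fold change of -0.03 (adjusted p = 0.888 in limma), and 0.71 under TPM scaling (adjusted p = 1.98e-06). Leaving out replicate 3 brought the count to 3 lower, 1 higher and 2 not called of 6, beside 63.8% of all tested genes called.

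**Figure D2:**
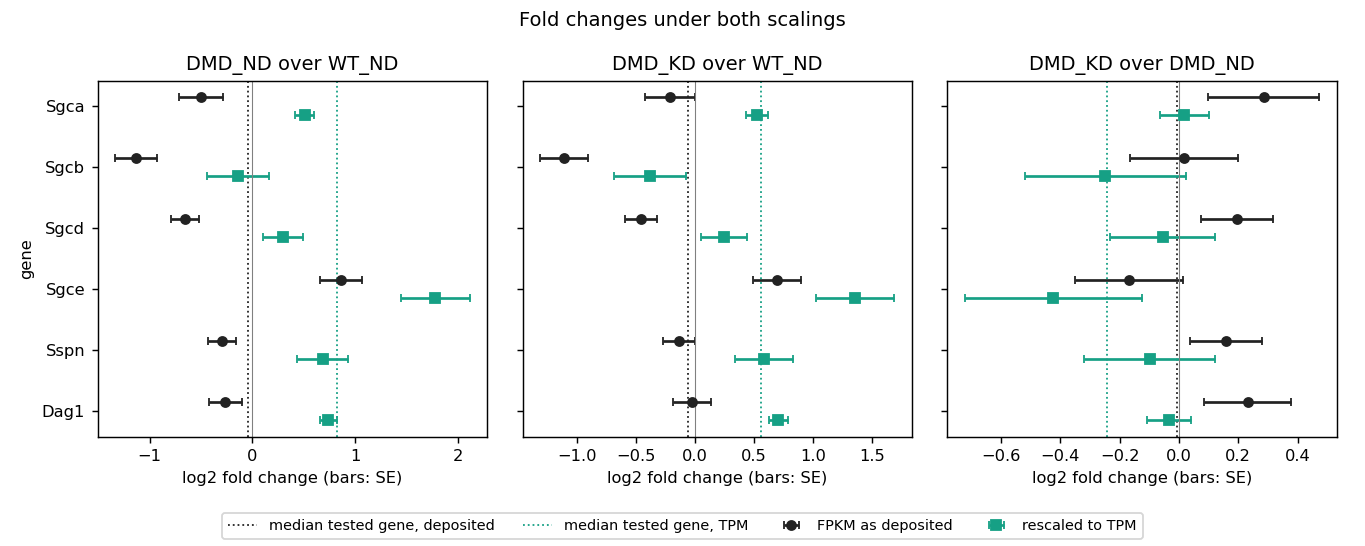
Log2 fold changes of the 6 genes with their SE (bars) in the 3 comparisons, from FPKM as deposited (circles) and rescaled to TPM (squares); dotted lines mark the median tested gene of each scale. Sgcb lies left of the median gene and Sgce right of it on both scales against WT_ND, and the values of DMD_KD over DMD_ND stay between -0.42 and 0.29.

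A ratio of 2 genes within a library does not depend on the scaling between libraries, so each gene was also set against Sgca. The question was whether the make-up of the complex at the transcript level, rather than its level, differed. In DMD_ND the ratio of Sgce to Sgca ran from 0.0331 to 0.0796, against 0.00857 to 0.0254 in WT_ND, with no overlap. The mean log2 ratios were -4.35 ± 0.437 in DMD_ND and -6.03 ± 0.839 in WT_ND (SD, n = 6 and 4), a difference of 1.68, or 3.21-fold (exact two-sided permutation test over 210 relabellings, p = 0.00476, the smallest they can give, adjusted p = 0.0357 over 15 ratio tests). Dag1 to Sgca was also higher in every DMD_ND library, by a smaller step: the log2 ratios averaged -1.04 ± 0.0439 in DMD_ND and -1.28 ± 0.0937 in WT_ND, a difference of 0.24 or 1.18-fold (exact permutation p = 0.00476, adjusted p = 0.0357). Both calls need every DMD_ND and WT_ND library. With 1 DMD_ND library fewer the adjusted p cannot go below 0.0595, and with 1 WT_ND library fewer not below 0.0893, unless more ratios pass. The Sgce difference then stayed between 1.41 and 1.93.

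Sgcb to Sgca ran from 0.329 to 0.475 in DMD_ND, against 0.418, 0.939, 0.399 and 0.919 in WT_ND replicates 1, 3, 4 and 9. WT_ND replicates 1 and 4 sat inside the DMD_ND range and replicates 3 and 9 far above it. The difference of the mean log2 ratios was -0.65 (exact permutation p = 0.0524, adjusted p = 0.262). Sgcd and Sspn to Sgca differed by -0.20 and 0.20 (exact permutation, adjusted p = 0.736 for both), with WT_ND replicates 3 and 9 again above replicates 1 and 4. In DMD_KD against WT_ND none of the 5 ratios passed (exact permutation, adjusted p between 0.286 and 0.939). Without DMD_KD replicate 3, where Sgce to Sgca was 0.00876 against 0.0306 to 0.0575 in the other 5 libraries, the Sgce ratio differed by 1.56 (exact permutation p = 0.00794, adjusted p = 0.0397), with no overlap.

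**Figure D3:**
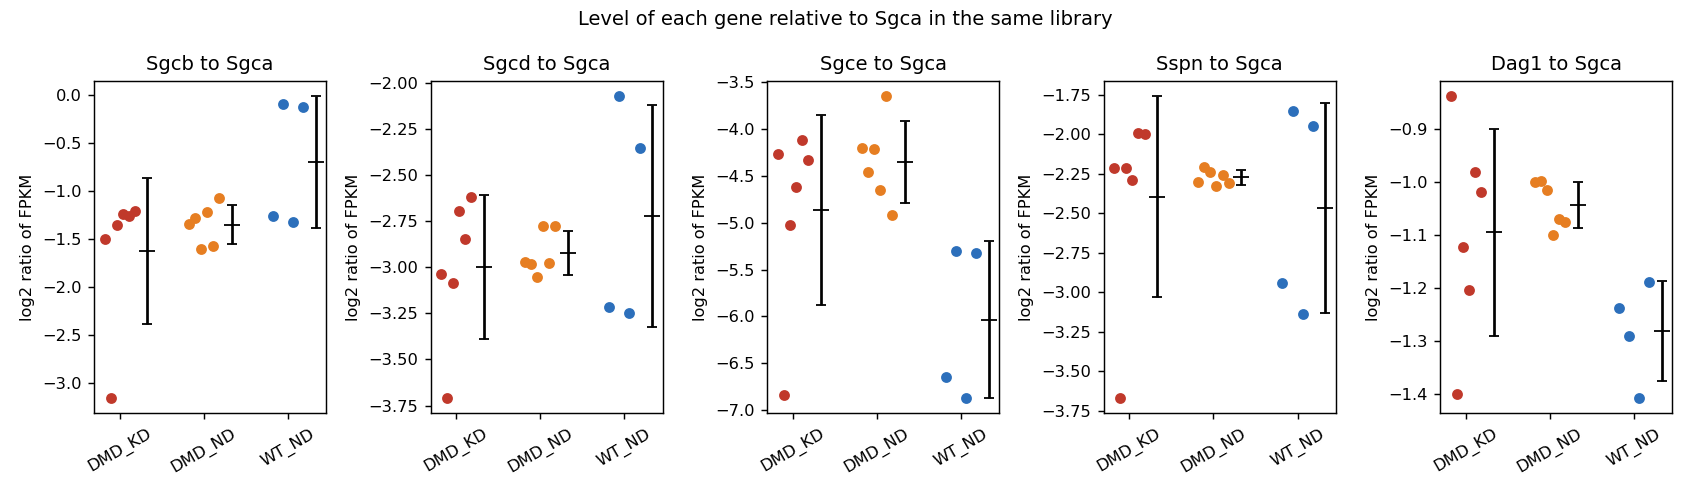
Log2 ratio of each gene's FPKM to that of Sgca in the same library (points), with mean and SD at the right of each group. The Sgce ratio is higher in all 6 DMD_ND libraries than in all 4 WT_ND libraries, WT_ND falls into a high and a low pair for Sgcb, Sgcd, Sgce and Sspn, and DMD_KD replicate 3 is the low point of its group.

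The libraries that stood apart in these ratios were those with the extreme contrasts of long against short genes. Sgcb to Sgca was 0.112 in DMD_KD replicate 3 with its contrast of -0.446, and 0.939 and 0.919 in WT_ND replicates 3 and 9 with contrasts of 0.277 and 0.278. In the other 13 libraries the ratio lay between 0.329 and 0.475. The gene model of Sgcb has 3800 bases and that of Sgca 1693. Sgcd, Sgce and Sspn, with 1363, 1887 and 4796 bases, also had higher ratios in WT_ND replicates 3 and 9 than in 1 and 4. For Sgcd they were 0.238 and 0.196 against 0.107 and 0.105, and 0.0764 in DMD_KD replicate 3. Dag1, with the longest model at 5365 bases, had 0.409 and 0.439 against 0.424 and 0.377 in the same order. In DMD_KD replicate 3 the Dag1 ratio was 0.379. The part of gene length in these ratios was not tested.

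**Figure D4:**
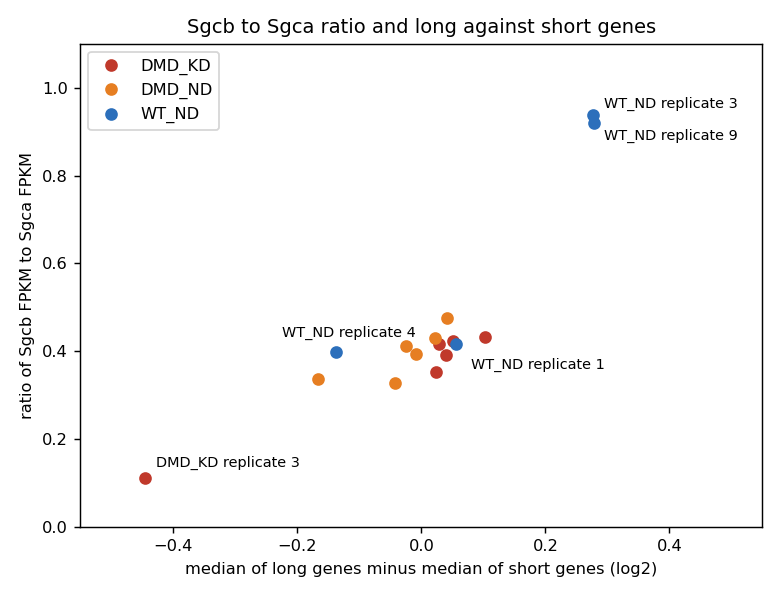
Ratio of Sgcb to Sgca FPKM (vertical axis, from 0) against the median log2 deviation of long genes minus that of short genes (horizontal axis), with 1 point per library. DMD_KD replicate 3 lies at the lower left at a ratio of 0.112, and WT_ND replicates 3 and 9 at the upper right at 0.939 and 0.919.

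The comparison of DMD_KD with DMD_ND asks what the diet changes in mutant muscle. None of the 6 genes passed the test (limma, adjusted p from 0.440 for Sgcd to 0.972 for Sgcb), and none had an unadjusted p under 0.05. Only 1 of all 12119 genes passed, or 0.00825%, and 14.3% had an unadjusted p under 0.05. Sgca had 83.9, 97.3 and 188 FPKM in DMD_KD, against 70.8, 89.1 and 94.8 FPKM in DMD_ND, with a log2 fold change of 0.29 (95% interval -0.11 to 0.68). For Sgcb the log2 fold change was 0.02 (95% interval -0.37 to 0.40), for Sgcd 0.20 (-0.06 to 0.45) and for Sgce -0.17 (-0.55 to 0.22). For Sspn it was 0.16 (95% interval -0.10 to 0.42) and for Dag1 0.23 (-0.08 to 0.54). The groups overlapped for all 6, where 1.48% of tested genes did not overlap. Under TPM scaling Sgcb, Sgcd, Sspn and Dag1 turned negative, and none passed there either. Without DMD_KD replicate 3 the log2 fold change was 0.12 for Sgca, -0.0045 for Sgce and 0.24 for Sspn (adjusted p = 0.775, 0.996 and 0.395 in limma), and the unadjusted p of Sspn was 0.0356. The 5 ratios to Sgca did not pass either (exact permutation, adjusted p between 0.682 and 0.974). These intervals leave room for changes of up to about 0.68 on the log2 scale, and in TPM they reach -1.05 for Sgce and -0.82 for Sgcb, so small effects of the diet were not detectable with these libraries.

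On the cytoplasmic side, 8 of 11 tested partner genes (of 14 listed) were lower in DMD_ND than in WT_ND in FPKM as deposited, beside 34.3% of all tested genes. In this list, which includes Dmd itself, 1 was higher and 2 were not called (median log2 -0.89, beside -0.04 for all tested genes). Under TPM scaling the median was -0.12 and the split 3 higher, 3 lower and 5 not called, and with fibre structure scaling the median was 0.08, with 5 higher and 1 lower. The median of all tested genes was 0.83 and 0.92 on those scales, and 70.7% and 79.6% of them were called higher. Nos1, neuronal nitric oxide synthase, which is anchored to the complex through syntrophin, averaged 3.24 ± 1.27 FPKM in DMD_KD, 2.39 ± 0.689 in DMD_ND and 8.85 ± 1.86 in WT_ND. Its log2 fold change in DMD_ND was -1.55 (adjusted p = 2.96e-06 in limma) and -0.80 under TPM scaling (adjusted p = 0.000803). Ank2, ankyrin-B, which places dystrophin at the membrane, fell to 1.76 ± 0.468 FPKM in DMD_ND, against 5.37 ± 1.04 in WT_ND (log2 -1.21, adjusted p = 1.06e-06 in limma; -0.52 in TPM). The 1 gene counted as higher, Krt8, keratin 8, had 2.52 ± 1.44 FPKM in DMD_ND, against 0.0759 ± 0.0529 in WT_ND. It passed the filter only through the mutant libraries and so had to differ, and no support is drawn from it. Utrn, utrophin, the dystrophin relative, and Cav3, caveolin-3, were not called at log2 -0.10 and -0.15 (adjusted p = 0.558 and 0.628 in limma); in TPM, Cav3 was called higher at 0.86.

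Dystroglycan binds laminin through a sugar chain built by a series of enzymes. Of 16 tested genes of that series (of 19 listed), 10 were lower in DMD_ND as deposited, beside 34.3% of all tested genes. None was higher and 6 were not called (median log2 -0.50, beside -0.04 for all tested genes). Under TPM scaling the median of the series was 0.44, with 8 higher and none lower, and with fibre structure scaling it was 0.63, with 11 higher. Both medians lie below those of all tested genes on these scales (0.83 and 0.92), and both counts are below the shares of all genes called higher (70.7% and 79.6%). Pomgnt2, which extends the core sugar, averaged 5.06 ± 1.03 FPKM in DMD_KD, 4.11 ± 0.298 in DMD_ND and 9.50 ± 1.61 in WT_ND (log2 -1.03 in DMD_ND, adjusted p = 1.39e-06 in limma; -0.17 in TPM). Of 10 tested matrix ligands of dystroglycan (of 12 listed), 8 were higher in DMD_ND and 2 not called as deposited (median log2 0.94), where 31.5% of all tested genes were called higher. All 10 were called higher in TPM and with fibre structure scaling, beside 70.7% and 79.6% of all genes. The lists were not tested against each other. Bgn, biglycan, averaged 106 ± 15.8 FPKM in DMD_KD, 124 ± 21.4 in DMD_ND and 6.64 ± 1.53 in WT_ND (log2 4.03 in DMD_ND, adjusted p = 1.48e-11 in limma). Lama2, the laminin chain of the adult fibre's basal lamina, averaged 9.34 ± 1.12 FPKM in DMD_KD, 8.80 ± 1.15 in DMD_ND and 3.31 ± 1.08 in WT_ND (log2 1.21 in DMD_ND, adjusted p = 2.08e-06 in limma). Lamb2 and Egflam were not called as deposited. In DMD_KD against WT_ND, 27.3% of all tested genes were called higher and 31.1% lower as deposited, and 57.2% and 4.73% in TPM. As deposited, the splits there were 1 higher and 7 lower of 11 partners and none higher and 9 lower of 16 glycosylation genes. Of 10 ligands 8 were higher and none lower. Under TPM scaling the splits were 3 and 3, 5 and 0, and 10 and 0 (higher and lower). In DMD_KD against DMD_ND no gene of these 3 lists was called.

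**Figure D5:**
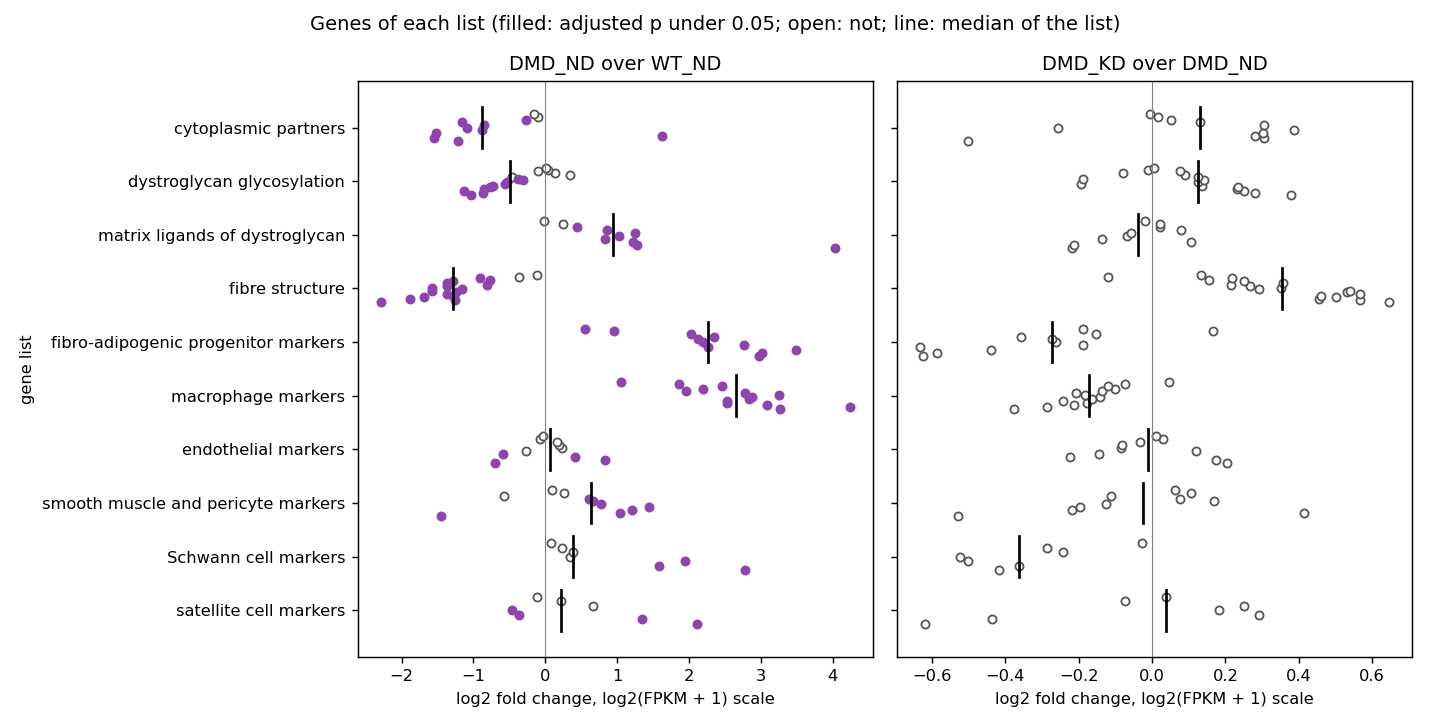
Log2 fold changes, on the log2(FPKM + 1) scale, of each gene of the 10 lists (points; filled where the adjusted p in limma is under 0.05), with the median of the list as a line; left DMD_ND over WT_ND, right DMD_KD over DMD_ND. On the left the medians of the matrix ligands (0.94) and of the progenitor and macrophage markers lie above 0 and that of the fibre structure genes (-1.28) below it, and on the right no point is filled.

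Other cell types and the fibres' own genes moved along with these changes. The counts that follow are to be read against the shares of all tested genes, 31.5% higher and 34.3% lower as deposited and 70.7% higher and 5.94% lower in TPM. In whole muscle, fewer cells of a type and less RNA per cell cannot be told apart. All 11 tested markers (of 13 listed) of fibro-adipogenic progenitors, which lay down the connective tissue between fibres, were higher in DMD_ND than in WT_ND, and their summed level ran from 940 to 1648 FPKM in DMD_KD, 1129 to 2309 in DMD_ND and 161 to 351 in WT_ND. All 14 macrophage markers were higher, with sums of 413 to 671 FPKM in DMD_KD, 454 to 886 in DMD_ND and 28.2 to 70.3 in WT_ND. Of these markers, 2 were under 1 FPKM in every WT_ND library. Ptprc and Itgam averaged 0.150 and 0.226 FPKM in WT_ND, and Adgre1, Fcer1g and Cd14 averaged 0.591, 0.870 and 0.997. With such WT_ND means these genes passed the filter only with the mutant libraries, and no support is drawn from them. Of 18 fibre structure genes 16 were lower and 2 not called as deposited (median log2 -1.28), with sums of 21323 to 63623 FPKM in DMD_KD, 15744 to 26269 in DMD_ND and 38035 to 68969 in WT_ND. The highest DMD_KD sum was replicate 3, and the other 5 DMD_KD libraries reached at most 29390 FPKM, below every WT_ND library. In TPM the median of the fibre structure genes was -0.27, with 3 higher and 6 lower. The 11 progenitor and 14 macrophage markers were also all called higher under both other scalings, and in DMD_KD against WT_ND. Smooth muscle and pericyte markers, whose cells also make sarcoglycans, split as deposited into 6 higher, 1 lower and 3 not called of 10, and in TPM into 8 higher, 1 lower and 1 not called (sums of 161 to 212 FPKM in DMD_KD, 157 to 204 in DMD_ND and 132 to 167 in WT_ND). In the smooth muscle list and in the Schwann list, 1 gene each was under 1 FPKM in every library of only 1 of these groups, DMD_ND or WT_ND. Schwann cell markers, of cells in which Sgce is known to be made, split into 3 higher and 4 not called of 7, and in TPM 7 of 7 were higher (sums of 38.5 to 57.6 FPKM in DMD_KD, 49.4 to 96.9 in DMD_ND and 20.9 to 31.0 in WT_ND). Endothelial markers split into 2 higher, 2 lower and 6 not called of 10, with sums of 82.9 to 111 FPKM in DMD_KD, 84.5 to 111 in DMD_ND and 86.2 to 117 in WT_ND, and in TPM 8 were higher, close to the share of all genes. Satellite cell markers split into 2 higher, 2 lower and 3 not called of 7, with sums of 60.2 to 99.6 FPKM in DMD_KD, 63.6 to 94.0 in DMD_ND and 34.7 to 67.5 in WT_ND, and in TPM 7 of 7 were higher. Of the 7, 2 were under 1 FPKM in every library of only 1 of these groups, DMD_ND or WT_ND. No gene of the 10 lists was at 0 in every library. The part of these cell types in the levels of Sgce, Sgcb or the other genes was not tested.

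The genes whose levels ran closest to each of the 6 over the 16 libraries were picked by the root mean square difference of their log2 deviations from WT_ND, among genes of at least 5 FPKM on average. Closest to Sgcb were Mtdh, Txlnb and Atl2 (0.0948, 0.0951 and 0.101 on the log2 scale), and closest to Sgca were Anapc5, Bag2 and Psmc3 (0.107, 0.111 and 0.116). Closest to Sgcd were Entpd5, Abcc5 and Rnf214 (0.133, 0.158 and 0.160), and to Sgce Idua, Add3 and Mapk8ip3 (0.168, 0.174 and 0.187). For Sspn they were Wnk1, Nedd4 and Kdm3b (0.110, 0.118 and 0.125), and for Dag1 Tmbim6, Tnip1 and Cdk16 (0.0735, 0.0912 and 0.0958). None of the 6 genes was among the 3 nearest of another, and Sgce, below 5 FPKM on average, could not be.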

How the data were processed

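RNA was taken from frozen tibialis anterior with RNAisoPlus, and its poly-A fraction was sequenced, per the labels' protocols. Per the submitters' processing notes, the tools were HISAT2 2.0.5 and featureCounts 1.5.0-p3 and the genome was mRatBN7.2. Annotation release, strand setting and the treatment of multiply matching reads, not given in the sources used here, could change values of overlapping genes. The authors deposited 1 table of FPKM, with gene symbols, positions and lengths per the file headers. Multiplied by gene length, the deposited values came out as whole reads (100% within 0.05 of a whole number), and the library size behind the values was a constant times the median-of-ratios size factor, averaging 1.10 in DMD_KD, 1.23 in DMD_ND and 0.714 in WT_ND.

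The 12119 genes that reached 1 FPKM in 4 or more libraries were fitted on log2(FPKM + 1) with limma 3.58.1 (R 4.3.3; trend and robust moderation, all 16 libraries in 1 model of 3 groups, Benjamini-Hochberg over all tested genes, two-sided). Ratios to Sgca were tested by exact permutation over libraries (numpy 2.4.6). Both tests were also run on simulated data. The members and lists were chosen with earlier results of these data known, and the contrast of long and short genes was added after seeing the data. Text names Dmd, the 6 members, rows named Sgc plus 1 letter, up to 3 genes with the smallest p per list, members of small counts and 3 nearest genes per member; some genes that this rule selects are not reported here. Alternatives were pseudocount, filter, scaling (TPM, and division by the geometric mean of the fibre structure genes), moderation, library weights, groups in the model, a replicate block and leaving out each library. Of the genes with a promoter entry, Sgcd and Sspn are not printed. No 2 libraries of a group came near sampling noise (chi-square per degree of freedom at least 12.5), so none was counted as the same library sequenced again. This cannot tell whether 2 libraries came from 1 animal.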

Additional observations from a re-analysis of the deposited data

Results flagged for a closer look

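Of 33 sets of library values of the 6 genes and their ratios, 8 held a library whose gap to its neighbour was large for the range of its group, where chance gives about 1 in 20 for a single set. In DMD_KD all 5 were replicate 3. Its Sgca level was 188 FPKM and its Dag1 level 71.4 FPKM, each the highest of the group, and its log2 ratios to Sgca were -3.15 for Sgcb, -6.83 for Sgce and -3.67 for Sspn, each the lowest. In DMD_ND all 3 were replicate 9, with the lowest levels of Sgca (70.8 FPKM), Sspn (14.8 FPKM) and Dag1 (33.8 FPKM). The 33 sets share the same libraries, and the ratios share Sgca. They are therefore not independent, and the count of 8 is not a test.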

How the results depend on the processing

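Scaling mattered most. On TPM the log2 fold changes in DMD_ND against WT_ND were 0.51 for Sgca, 0.30 for Sgcd, 0.68 for Sspn and 0.74 for Dag1, all negative as deposited, and scaled to the fibre structure genes they were 0.73 for Sgca, 0.0892 for Sgcb, 0.50 for Sgcd, 0.89 for Sspn and 0.96 for Dag1. In DMD_KD against WT_ND the TPM values were 0.53 for Sgca, 0.24 for Sgcd, 0.59 for Sspn and 0.71 for Dag1, and the fibre-scaled ones 0.66, 0.37, 0.71 and 0.84. In DMD_KD against DMD_ND the TPM values were -0.25 for Sgcb, -0.055 for Sgcd, -0.0993 for Sspn and -0.0331 for Dag1, and the fibre-scaled ones -0.0697 for Sgca, -0.33 for Sgcb, -0.14 for Sgcd, -0.18 for Sspn and -0.12 for Dag1. These turns follow from how the scalings are built, since they move the median gene. Over all genes TPM gave 8564 higher and 720 lower calls in DMD_ND against WT_ND, beside 3815 and 4152 as deposited, and 6930 and 573 in DMD_KD against WT_ND, beside 3304 and 3764. Fibre scaling gave 9642 and 438, and 7725 and 398.

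The higher Sgce level in DMD_ND was called under all 24 alternatives that tested it; the stricter filter, a mean of at least 5 FPKM, leaves Sgce out and calls 4361 genes in DMD_ND and 3950 in DMD_KD against WT_ND. In DMD_KD the Sgce call was lost with the replicate block (0.59, adjusted p = 0.105 in limma). The Sgca call in DMD_ND held in 10 of 25 alternatives. Beyond those in the report, it was lost without a filter (adjusted p = 0.0682 in limma), with library weights (-0.21), with the replicate block (-0.40) and without DMD_KD replicate 5 or 7. Dag1 in DMD_KD against WT_ND was 0.0793 with library weights, 0.11 with the block, and between -0.13 and 0.0929 as single libraries were left out. Sgcb in DMD_KD against DMD_ND then ran from -0.0828 to 0.15.

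Over all genes, DMD_KD against DMD_ND gave 17 calls with fibre scaling, 93 with library weights, 2 with only those groups in the model, 0 with the block, and 1 to 7 as single libraries were left out (7 without DMD_KD replicate 9, 2 without DMD_ND replicate 7); none was one of the 6 genes. Of the ratios to Sgca in DMD_ND against WT_ND, 0 were called on medians and 0 to 2 as libraries were left out. In DMD_KD against WT_ND, 1 was called against the fibre structure genes in place of Sgca, and 0 to 1 as libraries were left out (1 without DMD_KD replicate 3). Against the fibre structure genes, the log2 ratios were 0.0923 for Sgcb and 0.54 for Sgcd in DMD_ND against WT_ND and 0.40 for Sgcd in DMD_KD against WT_ND. On medians, the ratios to Sgca in DMD_KD against DMD_ND were 0.0086 for Sgcb, 0.0343 for Sgcd and 0.0675 for Sspn. As libraries were left out, they ran from -0.35 to 0.0358 for Sgcb, -0.15 to 0.0666 for Sgcd, -0.20 to 0.13 for Sspn and -0.10 to 0.0098 for Dag1. The Sspn ratio ran from -0.15 to 0.33 in DMD_KD and from -0.027 to 0.40 in DMD_ND against WT_ND, and the Sgcd ratio in DMD_ND against WT_ND from -0.38 to 0.016.

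Between libraries with the same number, the correlations of deviations ran from -0.66 to 0.41. Libraries with different numbers were not compared in this way, so the values cannot settle whether the libraries pair. With the replicate block 5852 and 5190 genes were called in DMD_ND and DMD_KD against WT_ND, with 4 and 2 of the 6 genes among them, and Sspn was called in DMD_ND (-0.57, adjusted p = 0.0434 in limma). Sspn was also called there with library weights (-0.39, adjusted p = 0.00111 in limma). Depth limits Sgce most, with 32 reads in its lowest library.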

Other observations

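Peg10, a paternally expressed imprinted gene that lies beside Sgce in mammals, was looked up after the values of Sgce had been seen. It did not pass the filter, and no test was made. It ran from 0.417 to 0.835 FPKM in DMD_KD (mean 0.641 ± 0.170, SD, n = 6), from 0.339 to 0.762 FPKM in DMD_ND (0.587 ± 0.158, n = 6) and from 0.0464 to 0.221 FPKM in WT_ND (0.138 ± 0.0717, n = 4). Between 2 and 67 reads lay behind these values, and between 2 and 13 in WT_ND. The WT_ND libraries all lay below the mutant ones. Groups that do not overlap were also seen for 55.1% of tested genes in DMD_ND and 37.2% in DMD_KD against WT_ND.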
